A study of Homo sapiens with 7 samples.

Results

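The chromatin contacts of 8 keratin genes were described in 3 human cancer cell lines. The 4 luminal keratins were KRT7, KRT8, KRT18 and KRT19, the 3 basal keratins were KRT5, KRT14 and KRT17, and KRT80 was counted in neither group. A loop, meaning a pair of different anchors on 1 chromosome, was assigned to a keratin when an anchor overlapped a window of 500 bp centred on any annotated start site of that gene. The members were 8 of 20163 protein-coding genes. Their promoters were in 109 of 163530 loops in Ishikawa, 70 of 42027 for T-47D and 38 of 149226 for LNCaP.

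Contacts were measured by H3K27ac HiChIP, which enriches ligated DNA for the acetylation of lysine 27 on histone H3, a mark of active promoters and enhancers. Ishikawa cells, an endometrial adenocarcinoma line, were represented by 4 samples, of which 2 received the vehicle DMSO and 2 received 10 nM of the estrogen E2 for 1 h. T-47D cells, a breast carcinoma line, contributed 1 sample and LNCaP cells, a prostate carcinoma line, contributed 2 samples, and the labels give no treatment for either line. Samples of a line were merged into 1 loop list, so DMSO and E2 could not be compared and no value has a replicate error. Ishikawa chromatin was cut with DpnII and that of the other lines with MboI, enzymes of the same site, GATC, at which 99.99% to 100% of the anchor starts of each list lay. The other lines were also sonicated differently and sequenced to another depth and read length. In comparisons with Ishikawa these steps cannot be told apart from the biology of the line. T-47D and LNCaP also differed in number of samples and in depth. Of these 2 lists, only that of T-47D held pairs of an anchor with itself. Such differences cannot be told apart from the line either.

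Keratins are the intermediate filament proteins of epithelial cells and assemble as obligate pairs of a type I and a type II chain. The type II genes studied here (KRT5, KRT7, KRT8 and KRT80) lie in a cluster on chromosome 12 together with the type I gene KRT18, whereas the type I genes KRT14, KRT17 and KRT19 lie in a cluster on chromosome 17. KRT8 and KRT18 form the filament of simple epithelia, KRT7 and KRT19 are further keratins of simple and ductal epithelia, KRT5 and KRT14 form the filament of basal cells in stratified and glandular epithelia, and KRT17 is found in basal cells and in epithelium under stress.

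The labelled lines were checked at 3 genes. In LNCaP 2936 read pairs lay in promoter loops of KLK3, which encodes prostate-specific antigen, against 6 for Ishikawa and 0 for T-47D. In T-47D 1063 lay in those of GATA3, a luminal breast transcription factor, against 7 for Ishikawa and 0 for LNCaP. PAX8, a transcription factor of the female genital tract, had 162 in Ishikawa and 0 elsewhere. The lists held 1040329 read pairs in Ishikawa, 351260 for T-47D and 1805322 for LNCaP, and the first 73 Mb of chromosome 12, where KRT5, KRT7, KRT8, KRT18 and KRT80 lie, held 12.6% of the Ishikawa read pairs against 3.24% in T-47D and 2.87% in LNCaP. Levels are given as read pairs in promoter loops per 1000000 read pairs of the list (RPM). Comparisons of these 5 genes with Ishikawa are also given per 1000000 read pairs of the segment (segment RPM), and the part of the dense segment in them was not tested.

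The promoter of KRT5, a basal keratin with promoter loops in Ishikawa alone, is shown as the 100 bases upstream of the canonical GENCODE start (GRCh37, 5′ to 3′ in the direction of transcription), at chr12:52914179-52914278 on the minus strand. Capitals mark ATAAAA, which was searched together with TATAAA as the core of a TATA box and was added after the sequences were seen.
KRT5: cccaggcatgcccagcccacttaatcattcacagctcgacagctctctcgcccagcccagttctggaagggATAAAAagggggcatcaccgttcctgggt

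The capitals begin 29 bases upstream of the start in KRT5. KRT7 has ATAAAA at 28 bases and KRT17 has TATAAA at 32 bases, whereas KRT80 has neither run in this stretch. Over all 20163 protein-coding genes, 5.07% have either run beginning 25 to 40 bases upstream. Motifs were also searched on both strands of the 500 bp window around the canonical start of these 4 genes. The AP-1 motif TGANTCA was found in KRT17 alone among them, against 7.46% of all promoters. The AP-2 motif GCCNNNGGC was found in KRT7 and KRT80, against 45.3% of all promoters, and the GC box GGGCGG in KRT7, KRT17 and KRT80, against 69.2%. None of the 4 had the forkhead motif TGTTTAC (3.29% of all promoters), the GATA motif AGATAA (10.3%) or the palindromic estrogen response element (0.0744%), and the palindromic androgen response element was found at 0 of the 20163 genes. A match describes letters of the genome and not binding in these cells.

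With the 500 bp window and all annotated starts, each list held loops at its own combination of keratin promoters. All 8 members had a promoter loop in Ishikawa, 5 of 8 in T-47D (KRT7, KRT8, KRT19, KRT80 and KRT17) and 2 of 8 in LNCaP (KRT8 and KRT18). Among all protein-coding genes 57.3%, 49.2% and 58.1% had one. All 8, 5 and 2 members, respectively, were also joined to a distal anchor, meaning an anchor over no promoter window, against 52.5%, 34.7% and 52.4% of all genes. Among the 675 genes of the chromosome 12 segment, 80.3% had a promoter loop in Ishikawa, 47.1% for T-47D and 55.7% for LNCaP, and 78.7%, 35% and 51% had a distal anchor. KRT8 was the only member with a promoter loop in all 3 lists under the 500 bp window, and no basal keratin had one in LNCaP. The combinations depend on these settings. In T-47D an anchor ended 232 bases before the KRT18 window. In Ishikawa and T-47D the anchors of KRT7 and KRT17 did not cover their canonical starts.

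Together the members took 1391 read pairs in Ishikawa, or 0.134% of the list, 813 in T-47D (0.231%) and 512 in LNCaP (0.0284%). A read pair that served 2 members counted once in these sums. Because KRT18 shared its LNCaP anchor with an annotated start of KRT8, every LNCaP loop of a member was also a KRT8 loop.

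**Figure D1:**
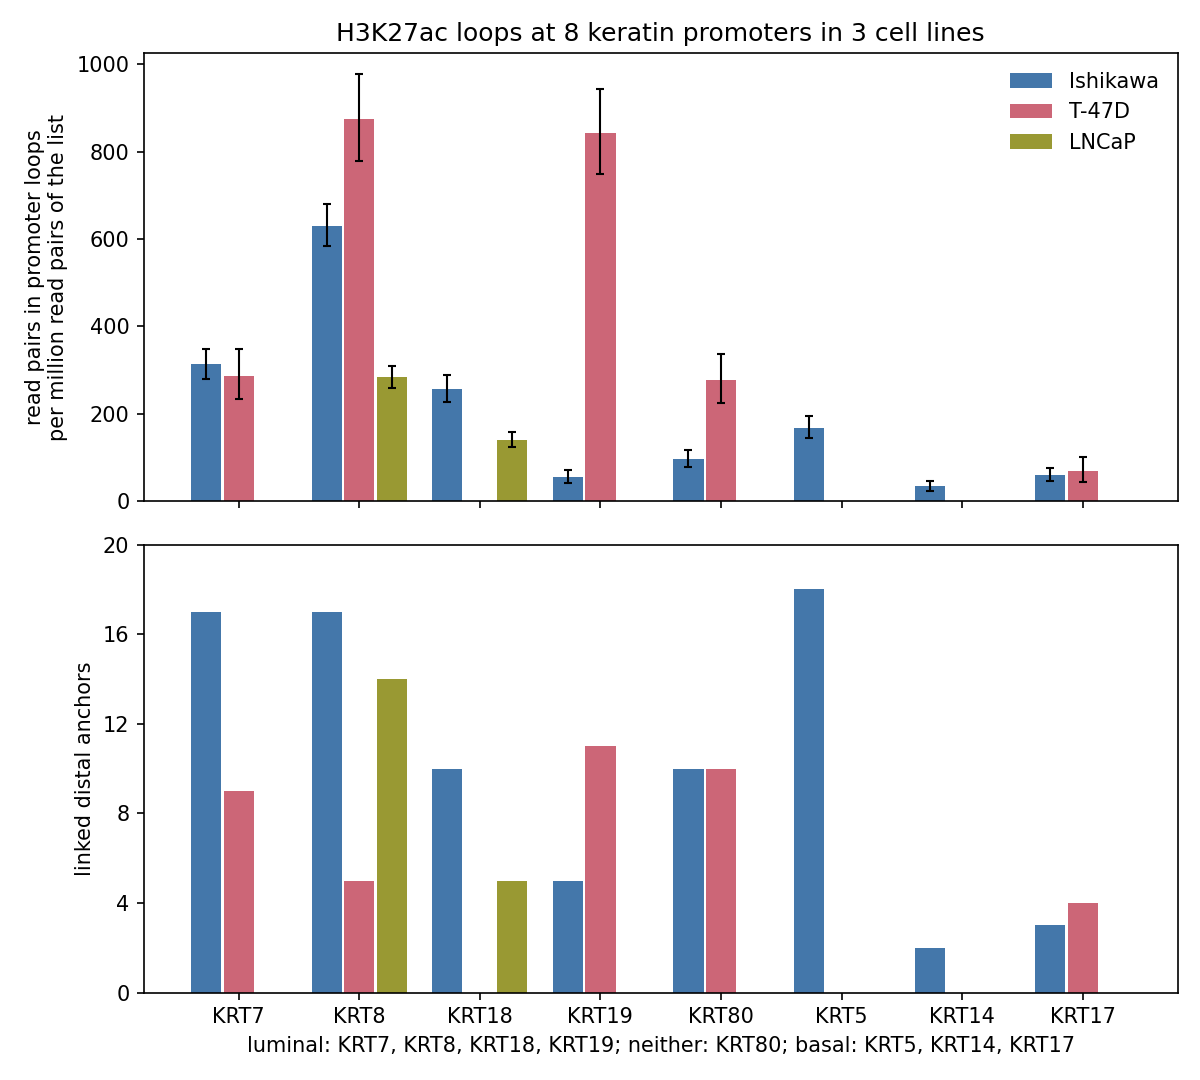
RPM in promoter loops (upper panel, bars with exact 95% Poisson intervals, which cover counting error only) and number of linked distal anchors (lower panel) for the 8 keratins in Ishikawa, T-47D and LNCaP. KRT8 had a bar in every list, KRT19 reached 843 RPM in T-47D against 54.8 in Ishikawa, and KRT5 and KRT14 had bars in Ishikawa only.

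KRT8, the type II chain of the simple epithelial filament, had the most read pairs of any member in each list when all its annotated starts were counted. With the canonical start alone it had 138 in T-47D, below KRT19, and with the 5′ end of the gene alone 0. Its loops held 656 read pairs in Ishikawa, 307 for T-47D and 512 for LNCaP. As RPM these were 631 (exact 95% Poisson interval 583 to 681), 874 (779 to 977) and 284 (260 to 309). These levels lay above those of 99.9%, 99.3% and 96.6% of protein-coding genes, respectively, and above 99.3%, 98.7% and 95.1% of the genes of the segment. Per kb of promoter anchor, KRT8 lay above 99.2%, 97.5% and 78.7% of the genes with a loop. T-47D was 1.39-fold above Ishikawa as RPM and 5.39-fold as segment RPM. The 4 separately sorted parts of the Ishikawa list, which cannot be assigned to samples, gave 402, 899, 1137 and 441 RPM, so the T-47D level of KRT8 fell within their range. KRT8 was 3.08-fold higher in T-47D than in LNCaP. Against LNCaP, Ishikawa was 2.22-fold higher as RPM but 1.98-fold lower as segment RPM.

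The annotated starts of KRT8 run from its canonical start to KRT18, so several anchors counted as its promoter. In Ishikawa 3 anchors did so with 286, 223 and 266 read pairs, the last being the KRT18 anchor. In T-47D 3 anchors had 138, 140 and 105 read pairs, and none of them was at KRT18. In LNCaP the anchor over the canonical start had 384 of the 512 read pairs and the KRT18 anchor 253, including 125 that joined these 2 anchors. A loop between 2 KRT8 anchors counted once in the gene's total.

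KRT18, the type I partner of KRT8, had 266 read pairs in Ishikawa, 0 for T-47D and 253 for LNCaP. The levels were 256 RPM (226 to 288) in Ishikawa and 140 RPM (123 to 159) in LNCaP. In T-47D, 3 read pairs, the fewest a listed loop can have, are 8.54 RPM, and contacts below that minimum are not in the list. The T-47D value depended on the window. An anchor at chr12:53339076-53342173 ended 232 bases before the first base of the KRT18 window and 0.729 kb from the canonical start, and it carried 147 read pairs in 9 loops. With a window of 2 kb these 147 read pairs, or 418 RPM, were assigned to KRT18, and T-47D was then above both other lines rather than below them. The absence of a KRT18 loop in T-47D therefore describes the edge of an anchor and not a promoter without contacts nearby. Ishikawa was 1.82-fold above LNCaP for KRT18 as RPM but 2.41-fold below it as segment RPM. The parts of the Ishikawa list gave 119, 355, 510 and 181 RPM with the 500 bp window. Both the LNCaP level and the 418 RPM of T-47D fell within their range.

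The KRT8 and KRT18 starts, 44 kb apart, were joined in each line. Loops between the 10 kb centred on each canonical start held 28 read pairs in 1 loop in Ishikawa, 45 in 2 loops in T-47D and 125 in 1 loop in LNCaP, or 26.9, 128 and 69.2 RPM. The LNCaP loop was the strongest of any member in that list and made up 49.4% of the read pairs of KRT18 and 24.4% of those of KRT8.

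A distal region beyond KRT18 divided the lines. In Ishikawa the intergenic anchor at chr12:53354354-53371983, 20.3 kb downstream of the KRT18 start, was joined to each of the 3 KRT8 anchors, by 49, 39 and 55 read pairs. In T-47D an anchor inside this region, at chr12:53362529-53367551, was joined to each of the 3 KRT8 anchors by 44, 37 and 27 read pairs and to the anchor just outside the KRT18 window by 59. LNCaP had no anchor of any loop over the region, so 0 read pairs joined it to either gene. LNCaP instead had an anchor in an intron of KRT8 at chr12:53306842-53312195, joined by 99 read pairs to the canonical KRT8 start and by 43 to KRT18, and neither Ishikawa nor T-47D had an anchor over it.

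**Figure D2:**
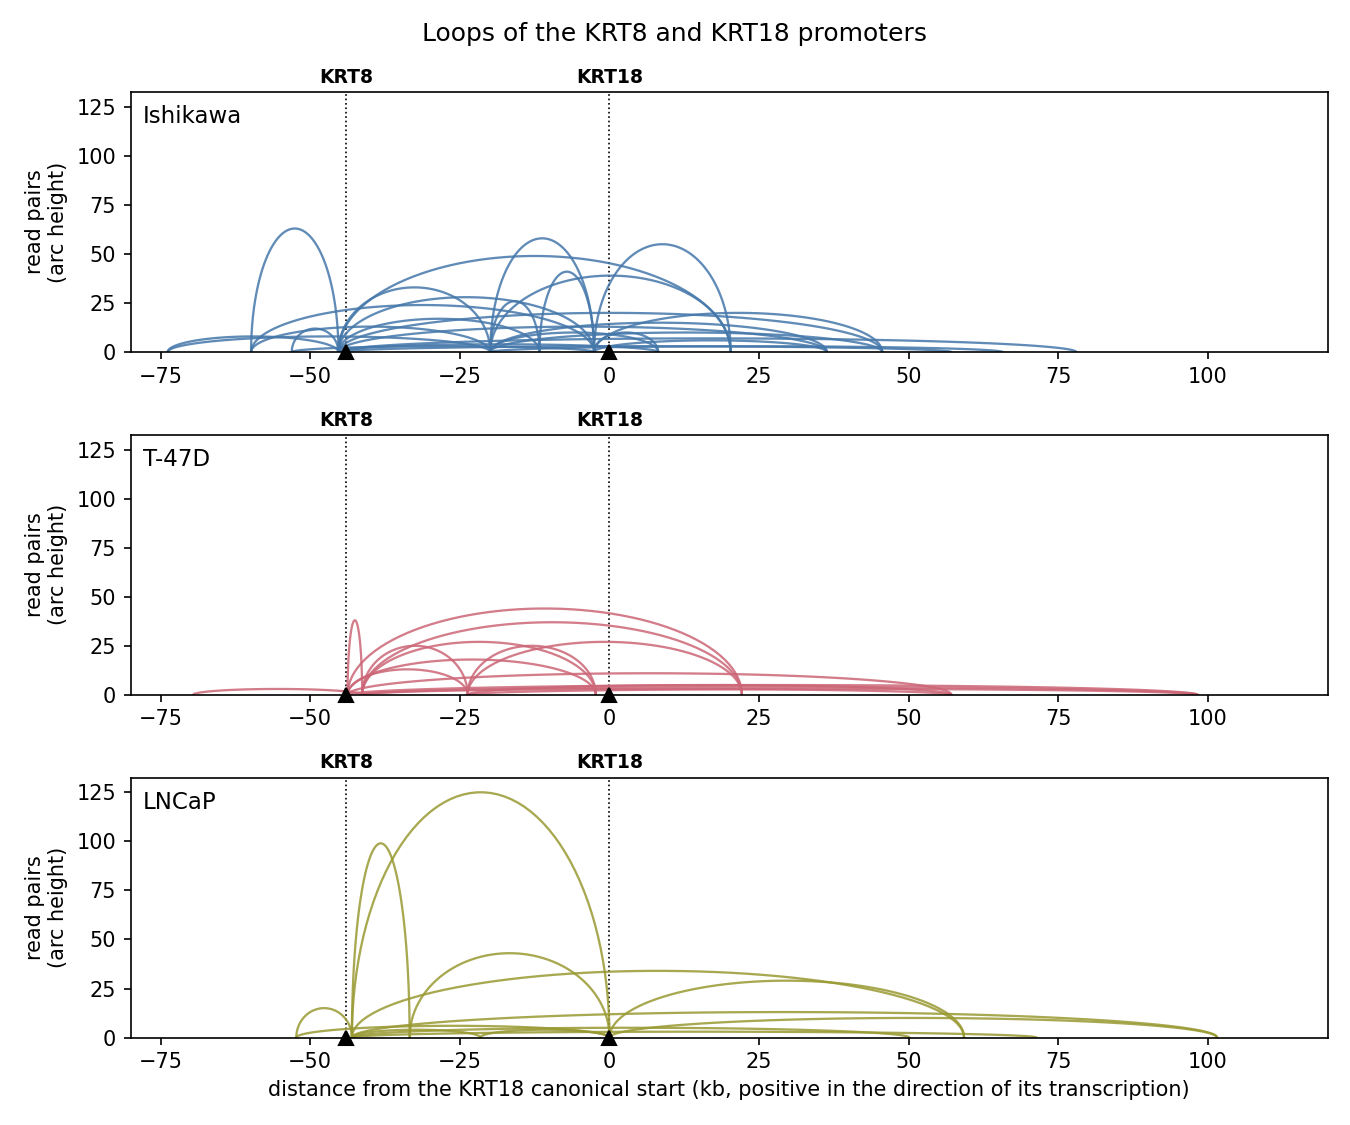
Loops of the KRT8 and KRT18 promoters in Ishikawa, T-47D and LNCaP, drawn as arcs between anchor centres within 80 kb upstream and 120 kb downstream of the KRT18 canonical start (x axis, kb). Arc height is the number of read pairs and black triangles and dotted lines mark the canonical starts. Arcs to a region about 20.3 kb downstream of KRT18 appear in Ishikawa and T-47D and not in LNCaP, where the arc between the genes reaches 125 read pairs.

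Other Ishikawa partners of KRT8 included an intergenic anchor at chr12:53277660-53288397, 15.8 kb downstream of its canonical start, with 63 read pairs, the strongest KRT8 loop in that list. It also joined KRT18 with 24. LNCaP loops ran from KRT8 and KRT18 to the promoter of the translation factor gene EIF4B (34 and 29 read pairs), to that of the tensin gene TNS2 (13 and 10) and to that of the epidermal keratin KRT2 (8 and 7). In T-47D the 3 KRT8 anchors were joined to EIF4B by loops of 11, 5 and 3 read pairs, and in Ishikawa 1 loop of 3 did so. Loops between KRT8's own anchors, which include that of KRT18 in Ishikawa and LNCaP only, were then left aside. Loops to promoters of other genes took 137 of the 512 KRT8 read pairs in LNCaP. They took 41 of 307 in T-47D and 12 of 656 in Ishikawa. In T-47D the anchor just outside the KRT18 window counted as distal, with 18, 27 and 25 read pairs to the 3 KRT8 anchors. Of the 41 Ishikawa KRT8 loops, 25 occurred in 2 or more parts of the list and 11 in all 4. The share of all Ishikawa loops that did so was not determined.

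KRT7, a type II keratin of glandular epithelia, had 326 read pairs in Ishikawa, 101 for T-47D and 0 for LNCaP. These were 313 RPM (280 to 349) in Ishikawa and 288 RPM (234 to 349) in T-47D, a 1.09-fold difference within counting error, whereas T-47D was 3.57-fold above Ishikawa as segment RPM. The parts of the Ishikawa list gave 242, 444, 481 and 240 RPM. LNCaP had no anchor within 14.5 kb of the canonical start, and both other lines were above it, by at least 189-fold in Ishikawa (at least 42.9-fold as segment RPM) and by at least 173-fold in T-47D. In such bounds a list with fewer than 3 read pairs was counted as 3, and a bound concerns read pairs in listed loops, since loops with fewer than 3 read pairs each had been removed from the lists.

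The KRT7 anchors did not cover its canonical start. The Ishikawa anchor at chr12:52632532-52644828 began 5.51 kb downstream of it, over 7 other annotated starts of KRT7, and also covered a start of the hair keratin gene KRT86, so their read pairs cannot be told apart. T-47D had 1 anchor 0.492 kb upstream of the canonical start with 27 read pairs and another 14.3 kb downstream, again shared with KRT86, with 81. With the canonical start alone, KRT7 had no promoter loop in either list. The strongest KRT7 loop in Ishikawa ran to chr12:52647039-52656421 in an intron of KRT86, 24.7 kb downstream of the canonical start, with 70 read pairs split as 16, 13, 16 and 25 over the parts. The strongest in T-47D ran to chr12:52672003-52673935, with 11 read pairs, and the same region was joined to KRT7 in Ishikawa by 33.

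KRT80, a type II keratin whose filament partners are less well described, lies upstream of KRT7. It had 100 read pairs in Ishikawa, 97 for T-47D and 0 for LNCaP, or 96.1 RPM (78.2 to 117) and 276 RPM (224 to 337). T-47D was 2.87-fold above Ishikawa as RPM and 11.2-fold as segment RPM, and the Ishikawa level of KRT80 was above 58.5% of the genes of the segment. The parts gave 85.5, 66.6, 159 and 74.6 RPM, each below T-47D. T-47D was at least 166-fold above LNCaP, which had no anchor within 24.1 kb. Ishikawa was at least 57.8-fold above LNCaP as RPM and at least 13.2-fold as segment RPM.

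KRT80 and KRT7 were joined to each other and to many of the same regions. Their promoters were linked by 6 read pairs in Ishikawa and by loops of 6 and 6 in T-47D. In Ishikawa 9 distal anchors were common to both genes, which were 90% of the 10 of KRT80 and 52.9% of the 17 of KRT7. In T-47D 8 were common, or 80% of the 10 of KRT80 and 88.9% of the 9 of KRT7. The strongest KRT80 loop was to the same intergenic region in both lists, chr12:52594516-52603209 with 22 read pairs in Ishikawa and chr12:52596661-52600011 with 18 in T-47D, and this region was joined to KRT7 by 19 read pairs in Ishikawa and by loops of 4 and 3 in T-47D. Of the T-47D loops, 12 of 17 of KRT7 and 7 of 14 of KRT80 had an Ishikawa loop with both anchors overlapping. The chromosome 12 segment held 17565 loops in Ishikawa and 1345 in T-47D. The share of all T-47D loops with such an overlap was not determined.

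**Figure D3:**
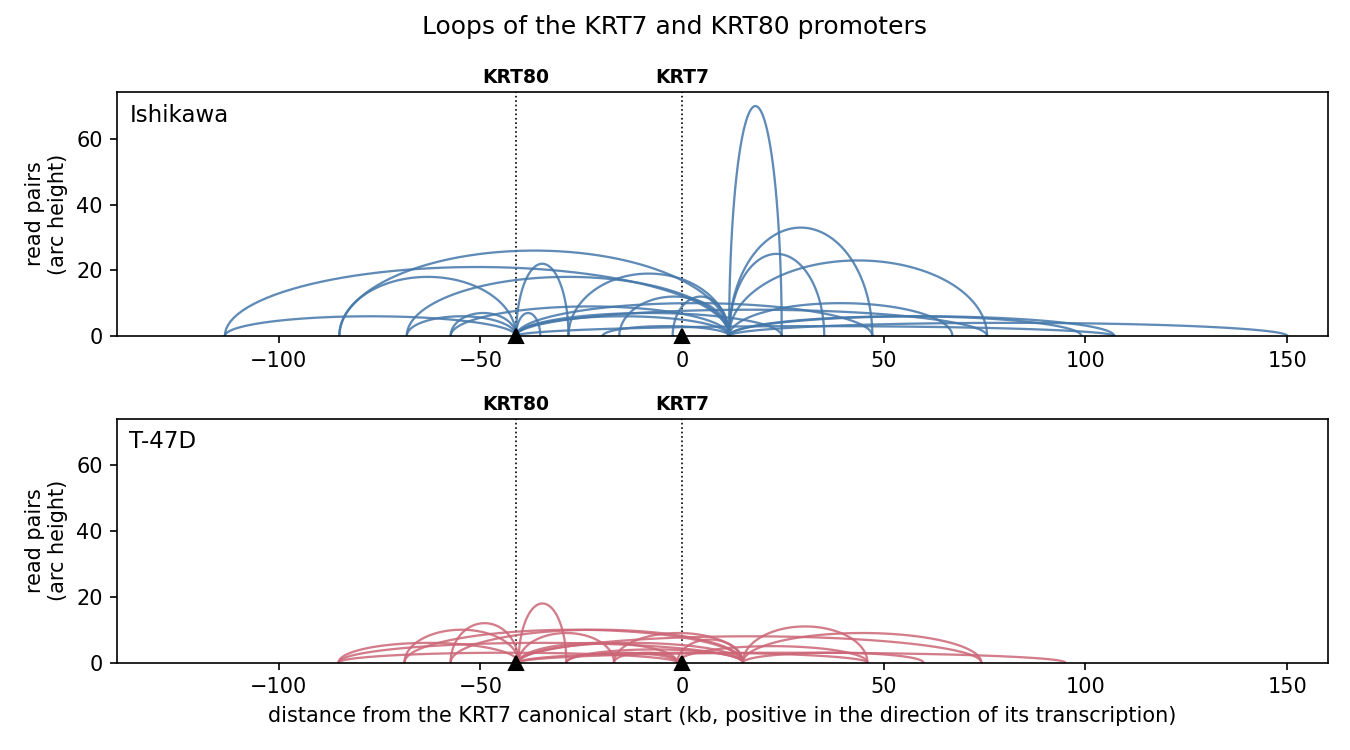
Loops of the KRT7 and KRT80 promoters in Ishikawa and T-47D, drawn as arcs between anchor centres against distance from the KRT7 canonical start (x axis, kb). Arc height is the number of read pairs and black triangles and dotted lines mark the canonical starts. The Ishikawa arcs rise from an anchor inside KRT7, the highest with 70 read pairs, and the T-47D arcs stay at 18 or below.

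KRT19, a type I keratin without a tail domain, stood apart in T-47D. It had 57 read pairs in Ishikawa, 296 for T-47D and 0 for LNCaP, or 54.8 RPM (41.5 to 71.0) and 843 RPM (749 to 944). T-47D was 15.4-fold above Ishikawa and at least 507-fold above LNCaP. KRT19 lies outside the dense segment. Scaled to the read pairs of chromosome 17, the log2 difference of Ishikawa over T-47D was -3.09 rather than -3.94 and that of T-47D over LNCaP at least 8.26 rather than 8.99. The second was at least 6.16 with each list thinned to the depth of T-47D. The parts of the Ishikawa list gave 0, 122, 117 and 40.7 RPM, all below T-47D. In T-47D KRT19 was above 99.2% of protein-coding genes, and per kb of promoter anchor, at 194 read pairs per kb, above 99.98% of the genes with a loop.

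The T-47D level of KRT19 rested on a short loop. The intergenic anchor at chr17:39688060-39694019, 6.48 kb upstream of the start, carried 168 of the 296 read pairs (56.8%). A second anchor 20.2 kb upstream, at chr17:39703552-39705997, had 48, and the promoter of KRT15, a basal type I keratin that lies next to KRT19, had 20. The remaining 12 loops had 9 read pairs or fewer and included the promoters of EIF1 (7), RARA, which encodes a retinoic acid receptor, and JUP, which encodes the desmosomal protein plakoglobin. Without loops shorter than 20 kb or longer than 1 Mb, T-47D had 98 read pairs and the log2 difference of Ishikawa over T-47D was -2.06 and that of T-47D over LNCaP at least 7.54. The Ishikawa anchor of KRT19 was 7.998 kb wide and ended inside the region of the strong T-47D anchor, so a contact between them would fall partly inside 1 Ishikawa anchor. That anchor had 13 read pairs with itself, against 28 for the T-47D anchor.

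The regions joined to KRT19 were not all free of loops in the other lists. LNCaP had an anchor at chr17:39691541-39694740, 6.98 kb from the KRT19 start and over the strong T-47D region, with 20 read pairs in 5 loops, of which the strongest to a promoter was to EIF1 with 7. In Ishikawa KRT19 was joined by 15 read pairs to an anchor over the hair keratin genes KRT35 and KRT36 and by 15 to the intergenic anchor at chr17:39817885-39827301. An LNCaP anchor over the latter was joined to EIF1 by 20 read pairs. For KRT19, 1 of the 15 T-47D loops had an Ishikawa loop with both anchors overlapping, compared with 12 of 17 for KRT7. The share of all T-47D loops with such an overlap was not determined. KRT7 lies in the dense segment of chromosome 12 and KRT19 does not, and the difference in overlap was not tested.

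The basal pair KRT5 and KRT14 had promoter loops in Ishikawa and in neither other list. KRT5 had 174 read pairs in 24 loops, or 167 RPM (143 to 194), and the parts gave 119, 133, 276 and 145 RPM. This was at least 19.6-fold above T-47D and 101-fold above LNCaP, and at least 5.04-fold and 22.9-fold as segment RPM. The level was above 97.5% of all protein-coding genes but above 75.7% of the genes of the segment. The nearest anchor lay 191 kb from the KRT5 start in T-47D and 63.7 kb in LNCaP.

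KRT5 had 18 linked distal anchors, the most of any member, with few read pairs each. Its strongest loop, to the intergenic anchor at chr12:52896963-52904276, 13.6 kb downstream of the start, had 25 read pairs, and 9 of its 24 loops were at the minimum of 3. Its promoter partners were all keratins: KRT82 with 19 read pairs, KRT6C with 12, KRT84 with 7, and KRT85, KRT73 and KRT8 with 3 each. KRT5 lies within the type II keratin cluster and its loops spanned at most 450 kb. The promoters of other genes within that reach were not counted. KRT82, KRT84 and KRT85 are hair keratins and KRT6C is a keratin of stressed and palmoplantar epidermis. Distal anchors were shared with luminal members too, 7 with KRT7 and 6 with KRT8. Some of these were in many Ishikawa loops. The anchor at chr12:52531430-52552675, shared with both, had 728 read pairs in 50 loops. That at chr12:52499070-52528294, also shared with both, had 625 in 45 loops. How often other genes of the segment share distal anchors was not determined.

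KRT14, the type I partner of KRT5, was the weakest member in Ishikawa, with 35 read pairs or 33.6 RPM (23.4 to 46.8), above 79.9% of genes. It had 15, 5, 10 and 5 read pairs in the parts. Ishikawa was at least 20.2-fold above LNCaP and at least 3.94-fold above T-47D, the second of which did not reach the 4-fold used here to call a difference. The nearest anchor in T-47D and in LNCaP had the same edges, chr17:39734771-39736923, 6.22 kb from the KRT14 start.

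KRT17 had 61 read pairs in Ishikawa, 24 for T-47D and 0 for LNCaP. These were 58.6 RPM (44.9 to 75.3) and 68.3 RPM (43.8 to 102), with overlapping intervals, and the parts of the Ishikawa list gave 55.8, 55.5, 83.6 and 47.5 RPM. T-47D was at least 41.1-fold above LNCaP and Ishikawa at least 35.3-fold. In neither list did the anchor cover the canonical start of KRT17: the Ishikawa anchor lay 1.47 kb and the T-47D anchor 0.414 kb inside the gene. All 4 T-47D distal anchors of KRT17 were also joined to KRT19, and the strongest, with 11 read pairs, was the anchor upstream of KRT19.

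KRT14 and KRT17 shared their Ishikawa contacts. Both were joined to chr17:39746636-39762637, by 20 read pairs from KRT14 and 31 from KRT17, and to chr17:39786883-39801335, by 12 and 24. These were both distal anchors of KRT14 and 2 of the 3 of KRT17, and all 3 distal anchors of KRT17 were also joined to KRT19. The 2 promoters were joined to each other by 3 read pairs, all in 1 part. Stretches of both anchors are repeated on the chromosome: 11.6% of the 50-base stretches of the KRT14 anchor and 11.4% of those of the KRT17 anchor occur a second time on chromosome 17, against 0.753% of the KRT5 anchor on chromosome 12. Where the copies lie was not determined. Of the 3 Ishikawa KRT8 anchors, 2.53%, 6.68% and 1.63% of the stretches recur on chromosome 12, and 8.27%, 12.8% and 4.64% anywhere in the genome. The read pairs of KRT14, KRT17 and KRT8 are less certain for that reason. In T-47D 6.74% of the 75-base stretches of the KRT17 anchor occur again, and at most 1.33% of those of a KRT8 anchor.

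**Figure D4:**
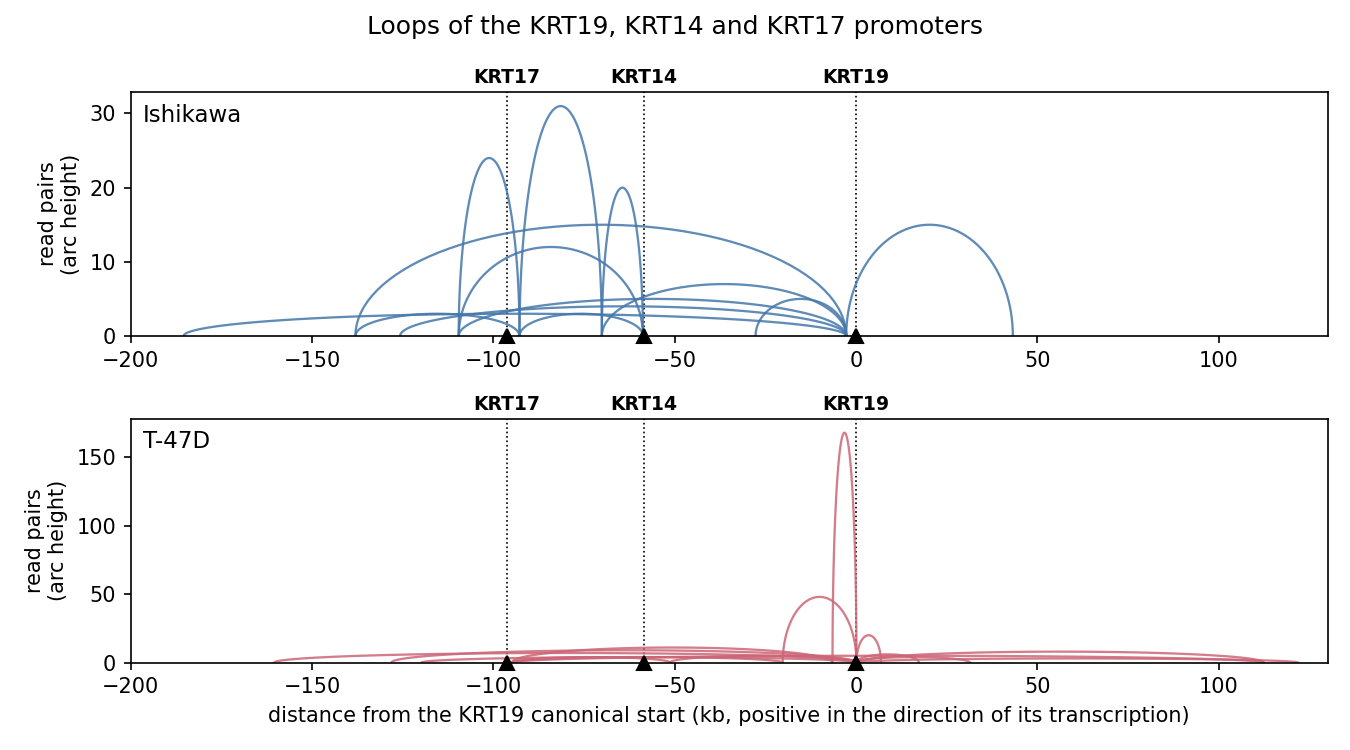
Loops of the KRT19, KRT14 and KRT17 promoters in Ishikawa and T-47D, drawn as arcs between anchor centres against distance from the KRT19 canonical start (x axis, kb, positive in the direction of KRT19 transcription). Arc height is the number of read pairs and black triangles and dotted lines mark the canonical starts. The arc of 168 read pairs near KRT19 stands out in T-47D, and the arcs of KRT14 and KRT17 that end in common anchors, with 20, 31, 12 and 24 read pairs, appear in Ishikawa. The y axes of the panels differ.

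Between pairs of lists, 4 members were called 4-fold or more higher in T-47D than in LNCaP (KRT7, KRT19, KRT80 and KRT17), against 21.7% of 12707 genes with 3 or more read pairs in either list. KRT18 was the 1 member called higher in LNCaP, at least 16.4-fold, against 12% of genes, and that call turned with the 2 kb window as described above. Between Ishikawa and T-47D, KRT18 and KRT5 were called higher in Ishikawa, against 12.4% of genes, and KRT19 was called higher in T-47D, against 39%. For KRT18 the bound was at least 29.9-fold as RPM and 7.70-fold as segment RPM, and its call likewise turned with the window. Between Ishikawa and LNCaP, 6 members were called higher in Ishikawa (all but KRT8 and KRT18), against 24.6% of genes, and 0 were called higher in LNCaP, against 36.6%. The 3 comparisons share lists. Among the genes of the segment alone, 48.1% were called higher in Ishikawa than in T-47D as RPM and 15% as segment RPM, 11.8% and 27.9% were called higher in T-47D, and 54.5% and 34.2% were called higher in Ishikawa than in LNCaP. As segment RPM, KRT8 and KRT80 were also called higher in T-47D than in Ishikawa. The median log2 difference of Ishikawa over LNCaP was 5.09 over the members and -0.91 over all genes, that of Ishikawa over T-47D was -0.05 and -1.51, and that of T-47D over LNCaP was 6.37 and 0.45, with lists under 3 read pairs counted as 3.

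Within a list, levels were ranked per kb of promoter anchor. In Ishikawa the order was KRT18 (26.6 read pairs per kb), KRT7 (26.5), KRT8 (20.5), KRT17 (15.1), KRT5 (14.7), KRT80 (13.1), KRT19 (7.13) and KRT14 (6.71), where the counting intervals of neighbours overlapped except between KRT7 and KRT8 and between KRT80 and KRT19. The Ishikawa median over genes with a loop was 2.84. In T-47D the order was KRT19 (194), KRT8 (58.5), KRT7 (34.2), KRT80 (20.1) and KRT17 (12.3), with overlap between the last 2 only, against a median of 7.23. In LNCaP KRT18 had 32.9 and KRT8 29.7, against a median of 14.0. The KRT18 anchor also counted for KRT8 in Ishikawa and LNCaP. All KRT18 read pairs there are therefore part of the KRT8 sum, and the intervals of these genes are not independent.

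Promoter loops at the other keratins are given beside the share of all genes with one, 57.3% in Ishikawa, 49.2% for T-47D and 58.1% for LNCaP, and no difference was tested. Of 16 other type II epithelial keratins 5 (31.2%) had a promoter loop in Ishikawa, 0 for T-47D and 1 for LNCaP (KRT2, with 60 read pairs). In the chromosome 12 segment, where these genes lie, 80.3%, 47.1% and 55.7% of genes had one, respectively. Of 13 other type I epithelial keratins 5 (38.5%), 2 and 1 had a loop. These were led in Ishikawa by KRT23 with 195 read pairs, in T-47D by KRT15 with 277 and KRT23 with 108, and the 1 in LNCaP was KRT10 with 49. Hair keratins had loops in Ishikawa for 4 of 6 type II (66.7%) and 6 of 11 type I genes (54.5%), where 80.3% of the genes of the chromosome 12 segment, which holds the type II cluster, had one, with the most at KRT86 (400 read pairs), which shares the KRT7 anchor, and KRT82 (221). In T-47D 2 of 6 type II hair keratins and 0 of 11 type I had a loop, and in LNCaP 0 of 17 did.

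Most genes on a list of keratin-binding, desmosome and hemidesmosome genes had promoter loops in each line. The list also held VIM, which encodes the mesenchymal filament protein vimentin. Of its 17 genes 15 had a promoter loop in Ishikawa, 12 for T-47D and 15 for LNCaP (88.2%, 70.6% and 88.2%, against 57.3%, 49.2% and 58.1% of all genes), and without VIM 14, 12 and 14 of 16 had one. The highest RPM in Ishikawa were the cornified envelope gene EVPL (683) and the hemidesmosome genes COL17A1 (467) and ITGB4 (340). All 3 lie among genes rich in Ishikawa loops, since the median gene within 5 Mb had 73 read pairs for EVPL, 90 for COL17A1 and 77 for ITGB4, against 4 over all genes, and their part in these levels was not tested. In T-47D they were the linker gene PLEC (1768), FAM83H (1318), whose product organises keratin filaments, and JUP (820). In LNCaP they were JUP (307), the desmosomal gene PKP1 (237) and PLEC (223). The genes around these T-47D and LNCaP leaders were not examined in that way.

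The protein-coding genes most like each member over the 3 lists, by the distance between their vectors of log2(RPM + 1) and among genes that share no anchor with it, were SLC16A5 and TNIK for KRT7, ENSG00000289747 and TNK2 for KRT8, PLB1 and CAMK2G for KRT18, S100A16 and P2RY6 for KRT19, IER3 and TNFSF10 for KRT80, and FOXD2 and RGS20 for KRT17. S100A16, for example, had 66 read pairs in Ishikawa, 321 for T-47D and 0 for LNCaP. FMNL1 and LRMDA for KRT5 and NLRP3 and GAREM2 for KRT14 matched on the Ishikawa count alone, since all these genes were at 0 in the other lists. With 3 points per gene, such likeness is a description only.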

How the data were processed

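Per the labels and methods, the authors aligned HiChIP reads to hg19 with HiC-Pro, called loops with hichipper, removed loops with fewer than 3 read pairs or a false discovery rate above their limit and merged the samples of each line. The deposited values are counts of read pairs per anchor pair, not scaled for depth. Here, rows of an Ishikawa anchor pair were summed, and pairs of an anchor with itself (472157 read pairs in Ishikawa, 308759 in T-47D, 0 in LNCaP) and 70 T-47D rows across chromosomes were left out. Start sites came from GENCODE lifted to GRCh37, the build of the files, and promoter sequences from GRCh37; those of 4 members are not reported here. Analyses used Python 3.11.15, numpy 2.4.6, pandas 2.3.3, scipy 1.17.1 and matplotlib 3.10.9. With 1 list per line no test was run: exact 95% Poisson intervals cover counting error only, and read pairs made by PCR are not independent molecules. Folds compare RPM, called at 4-fold or more. Named genes are the members, the 3 promoter partners and 3 distal partners with most read pairs per member and list, the 2 most similar genes per member and the 3 highest of the other lists; further partners and keratins were named after their values were seen. The members, gene lists and the 73 Mb boundary were chosen with earlier results of these data known. On simulated data planted loops of 200 of 200 genes were recovered. Alternatives were other minima of read pairs, thinning, windows, start sites, spans, overlaps, scalings and Ishikawa parts.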

Additional observations from a re-analysis of the deposited data

Results flagged for a closer look

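Read pairs that joined a member's promoter anchor to itself were left out of every comparison above. In Ishikawa there were 69 at KRT7, 100 at KRT8, 27 at KRT18 (also part of the KRT8 sum), 13 at KRT19, 4 at KRT80, 35 at KRT5 and 8 at KRT17, and 0 at KRT14. In T-47D there were 15 at KRT7, 62 at KRT8, 28 at KRT19, 16 at KRT80 and 3 at KRT17. Of all protein-coding genes, 37.3% in Ishikawa and 46.3% in T-47D had such pairs, and the LNCaP list held none for any gene. KRT8 was above 99.3% of genes in Ishikawa and 95.9% in T-47D by this measure.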

How the results depend on the processing

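No paired analysis was possible because each line has 1 merged list. For the same reason no sample could be left out, and parts of the Ishikawa list were left out instead. With a 2 kb promoter window, the log2 difference of KRT18 turned to -0.71 for Ishikawa over T-47D and 1.58 for T-47D over LNCaP, leaving 1 member called higher in Ishikawa than in T-47D and 0 called higher in LNCaP than in T-47D. With 1 start site per gene, its 5′ end, T-47D had 3 members with a promoter loop and 3 with a distal anchor, 2 members were called higher in LNCaP than in T-47D, and 2 higher in T-47D than in Ishikawa. With only the canonical start, an alternative added after the data were seen, T-47D again had 3 members with a promoter loop and 3 with a distal anchor, and 2 members were called higher in T-47D than in LNCaP. Calling at 2-fold gave 2 members higher in T-47D than in Ishikawa. Leaving out Ishikawa parts gave 2 to 3 members higher in Ishikawa than in T-47D, with KRT14 added without part 4. The log2 difference of KRT14, 1.98, ranged from 1.04 with spans of 20 kb to 1 Mb to 2.83 with scaling to the chromosome. The other counts of members stayed within 1.5 times under the alternatives run. Without part 3, Ishikawa KRT19 had 29 read pairs rather than 57, and without part 1 KRT14 had 20 rather than 35. With each list thinned to the depth of T-47D, the lower bounds of T-47D over LNCaP fell on the log2 scale to 4.61 from 7.43 for KRT7, 4.55 from 7.38 for KRT80, 6.16 from 8.99 for KRT19 and 2.53 from 5.36 for KRT17. Those of Ishikawa over LNCaP fell to a range of 2.05 to 5.00 from 4.34 to 7.56. The minimum of 3 read pairs per loop is 8.54 RPM in T-47D and 1.66 in LNCaP. It is 2.88 RPM of the summed Ishikawa list. Each of the 3 strongest Ishikawa loops per member had 0 or at least 3 read pairs in every part. The parts held 268859, 90130, 239253 and 442087 read pairs, against 351260 in T-47D. If the minimum was set within each part, 2.88 RPM understates it, so the list most limited by depth cannot be named.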
